A study of Mus musculus with 15 samples.

Results

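Type I interferon-stimulated effector genes were followed through the mouse colon in an AOM/DSS tumour model with and without the treatment labelled WMW-H. The set was a list of 45 gene symbols matched to the symbol column of the deposited table. A row was found for 44 of the 45 among 22063 genes, and Mx2 was not analysed here. All 44 reached 1 FPKM in at least 5 libraries, the filter for testing that 12917 genes passed. Phf11a did so only through WMW-H and control libraries, and it is included in the counts below.

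RNA sequencing of colon from wild-type C57BL/6 mice gave 15 libraries in 3 groups of 5. The WMW-H group is described in the series' design as the treatment group beside the tumour model, and the series title names Wumei Wan, a herbal formula. The AOM/DSS group is the colorectal cancer model, made with azoxymethane (a carcinogen) and dextran sulfate sodium (which injures the colon lining). The control group is the blank group without either. The label WMW-H does not itself name AOM/DSS, and the sources used here give no dose, age, sex or day of collection. The labels call the libraries replicates without saying that they came from separate mice, so p-values measure only the spread between these libraries.

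Type I interferons bind the receptor IFNAR1/IFNAR2, whose kinases JAK1 and TYK2 activate a complex that includes STAT2 and IRF9. The complex binds the interferon-stimulated response element (ISRE) in the promoters of many genes. Many of their products bind viral RNA, block entry or release of viruses, or mark proteins with the ubiquitin-like protein ISG15. In the gut a low level of these transcripts is kept up in the absence of infection, and interferon lambda drives the same complex in epithelial cells.

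The ISRE core was looked for in RefSeq promoters (GRCm38.p6, 250 bases before to 50 after each gene's start) as the letters GAAANNGAAA or, on the other strand, TTTCNNTTTC. A promoter was found for 35 of the 44 members, and 16 of the 35 (45.7%) held at least 1 match, where 3.99% of 27025 genes in the same table did. Ifi44, Herc6, Phf11d and Ifit2 also fell far in AOM/DSS, and their promoters held no match. All sequences shown hold a match. They are the stretches just before the start of 5 members that fell far in AOM/DSS and of the near copy Ifit3b. The last is from Ifitm2, which went the other way. All are written in the direction of the gene and end at the base before the start. Capitals mark every match to the core.
Isg15, chr4:156200819-156200918, minus strand: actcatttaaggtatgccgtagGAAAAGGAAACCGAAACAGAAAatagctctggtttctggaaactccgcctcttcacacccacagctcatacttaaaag
Ifit1, chr19:34640769-34640888, plus strand: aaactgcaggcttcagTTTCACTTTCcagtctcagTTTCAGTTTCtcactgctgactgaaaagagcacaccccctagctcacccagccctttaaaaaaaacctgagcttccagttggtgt
Ifit3, chr19:34583359-34583528, plus strand: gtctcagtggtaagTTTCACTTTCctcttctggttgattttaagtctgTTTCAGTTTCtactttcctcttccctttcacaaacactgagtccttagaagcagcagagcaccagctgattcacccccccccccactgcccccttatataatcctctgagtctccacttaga
Ifit3b, chr19:34607757-34607956, plus strand: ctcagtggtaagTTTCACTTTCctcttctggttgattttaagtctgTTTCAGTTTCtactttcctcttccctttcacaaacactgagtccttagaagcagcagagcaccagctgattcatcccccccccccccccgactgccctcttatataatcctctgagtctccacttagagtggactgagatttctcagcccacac
Ddx60, chr8:61928007-61928086, plus strand: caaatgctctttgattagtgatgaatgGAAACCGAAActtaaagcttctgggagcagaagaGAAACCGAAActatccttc
Rsad2, chr12:26456453-26456592, minus strand: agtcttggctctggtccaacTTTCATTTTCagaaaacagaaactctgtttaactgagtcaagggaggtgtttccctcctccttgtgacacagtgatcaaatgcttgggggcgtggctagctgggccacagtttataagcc
Ifitm2, chr7:140955962-140956041, minus strand: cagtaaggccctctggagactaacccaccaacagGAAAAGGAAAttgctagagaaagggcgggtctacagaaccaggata

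Isg15 carried 3 overlapping matches in a row, and Ifit1, Ifit3, Ifit3b and Ddx60 carried 2 each. The matches of Isg15 lay 78 to 57 bases before the start and those of Ddx60 53 to 44 and 19 to 10 bases before it. Ifitm2 had a match 46 to 37 bases before its start and Ifitm3 had 2 within the first 28 bases after it, whereas the Ifitm1 window held none. A match of letters is a description and not a measured binding site, and windows without one say only that these letters were not there.

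In AOM/DSS colon, 41 of the 44 genes were lower than in control and the other 3, Ifitm1, Ifitm2 and Ifitm3, were higher (limma on log2(FPKM + 1), two-sided, Benjamini-Hochberg adjusted p under 0.05 over all genes tested). Of all genes tested, 20.6% were lower and 45.5% higher in this comparison. The 5 AOM/DSS libraries and the 5 control libraries did not overlap for any of the 44, where 16.0% of all genes were lower and 36.9% higher without overlap. The median change of the 44 was -1.07 on the log2 scale, against 0.12 for all genes tested. Summed over the 41 genes that fell, levels ran from 1283 to 1328 FPKM in WMW-H, from 892.7 to 924.3 FPKM in AOM/DSS and from 1815 to 1850 FPKM in control. The fall was deep in some and shallow in others, with 5 genes left below 15% of the control mean, 8 between 15% and 25%, 14 between 25% and 50%, 13 between 50% and 75%, and Shisa5 alone above 75%.

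In WMW-H colon, 35 of the 44 genes were higher than in AOM/DSS, 5 were lower and 4 were not called, where 25.9% of all genes tested were higher and 40.9% lower. Groups did not overlap for 34 of the higher genes and 3 of the lower ones, beside 18.8% and 32.3% of all genes. The median change was 0.64 on the log2 scale, against -0.07 for all genes tested. Compared with control, WMW-H libraries were lower for 34 of the 44 and higher for 3, and 7 were not called, where 24.1% of all genes were lower and 35.4% higher. Of these, 33 were lower and 3 higher without overlap, beside 17.0% and 25.3% of all genes, and the median change was -0.55 against 0.05 for all genes.

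The share of the fall restored was taken for each of the 41 genes that fell as the WMW-H level minus the AOM/DSS mean, over the control mean minus the AOM/DSS mean, in FPKM. It is 0% at the AOM/DSS mean and 100% at the control mean, and the AOM/DSS mean enters both its numerator and denominator. The median over the 41 genes was 46.5%, and the medians of the 5 WMW-H libraries were 44.4%, 45.4%, 46.5%, 43.9% and 41.1%. Taken on the log2 scale instead, the median over the 41 genes was 58.2%. In 28 genes WMW-H lay between the other groups, higher than AOM/DSS and lower than control, with 18.2% to 62.3% restored. In 7 genes, Ifit2, Ifit3, Ifit3b, Ifi27l2a, Trim34a, Phf11a and Epsti1, WMW-H was higher than AOM/DSS and was not called against control, with 81.7% to 104% restored. Among these, Phf11a was tested only because of its level in WMW-H and control. Uba7, Ifi27, Shisa5 and Lgals3bp were not called against AOM/DSS, and Pml and Helz2 were lower than in both other groups. The share restored was not taken over all genes that fell in AOM/DSS, so these values do not set the members apart from other genes.

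The libraries held 16362000 to 21140000 fragments as read from the steps of the low values, so that 1 fragment on a transcript of 1 kilobase was worth 0.0473 to 0.0611 FPKM. Correlations of log2(FPKM + 1) between libraries were 0.992 to 0.995 within groups, 0.959 to 0.963 between WMW-H and AOM/DSS, 0.969 to 0.972 between WMW-H and control and 0.939 to 0.942 between AOM/DSS and control. The median coefficient of variation of the 44 genes was 6.73% in WMW-H, 7.52% in AOM/DSS and 4.18% in control. Colon epithelial cells are the labelled cell type, and 10 epithelial markers summed to 8810 to 9190 FPKM in WMW-H, 9180 to 9240 FPKM in AOM/DSS and 10100 to 10300 FPKM in control. Smooth muscle genes were also high, at 2000 to 2120, 2020 to 2090 and 2000 to 2060 FPKM in these groups. Of the 10 epithelial markers, 6 were lower and 4 higher in AOM/DSS than in control, beside 20.6% and 45.5% of all genes tested. They ran from 58.6% of the control mean for Cdx2 to 137% for Cdh1. Fibroblast genes summed to 165% of control in AOM/DSS and 198% in WMW-H, and endothelial genes to 143% and 138%. On the first principal component of the tested genes, WMW-H libraries lay between the other groups, at -6.222 to -5.115. AOM/DSS libraries lay at 38.06 to 38.43 and control libraries at -33.11 to -31.56. On the second, WMW-H stood apart from both other groups. WMW-H replicate 3 stood apart from the other libraries on the third principal component.

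RNA of other tissues moved with the groups. The 17 pancreatic acinar genes made 2.25% to 2.34% of all FPKM in WMW-H, 1.33% to 1.36% in AOM/DSS and 5.80% to 5.89% in control, so that their sum fell to 22.2% of control in AOM/DSS and 22.5% of that fall was restored in WMW-H. Of the 41 genes that fell, 10 kept a smaller share of control than this sum and 33 had a larger share restored. Male accessory gland genes made 0.512% to 0.536% of all FPKM in AOM/DSS and at most 0.000805% in WMW-H and 0.000658% in control. The pancreatic, accessory gland and Paneth cell genes were also left out and the remainder rescaled. The members' median relative to all genes in AOM/DSS against control was then -1.19, and -1.18 with them. Rescaling divides all genes of a library by the same number. This difference could therefore hardly change, and it tells nothing about the part of other tissues.

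Among immune markers, T and NK cell genes summed to 22.7 to 24.1 FPKM in WMW-H, 21.4 to 24.2 FPKM in AOM/DSS and 39.7 to 41.9 FPKM in control, with 8 of the 9 tested lower in AOM/DSS. Of 10 macrophage and monocyte genes, 9 were higher in AOM/DSS than in control. Over all genes tested, 20.6% were lower and 45.5% higher in that comparison. The 8 plasmacytoid dendritic cell genes, Bst2 among them, summed to 70.6 to 78.7 FPKM in WMW-H, 66.0 to 73.4 FPKM in AOM/DSS and 89.6 to 97.9 FPKM in control, and their defining marker Siglech averaged 0.27, 0.27 and 0.29 FPKM. Within that list the 4 tested genes moved apart in AOM/DSS against control: Bst2, Irf8 and Pacsin1 were lower, and Tcf4 was higher, averaging 12.1 ± 1.02 FPKM in WMW-H, 20.5 ± 1.05 FPKM in AOM/DSS and 7.69 ± 0.30 FPKM in control (adjusted p = 6.14e-13). Plasma cell genes summed to a mean of 659.8 FPKM in WMW-H, 511 FPKM in AOM/DSS and 816 FPKM in control, in ranges that did not overlap, so that their sum fell to 62.7% of control and 48.7% of that fall was restored in WMW-H. Jchain, the joining chain of secreted antibodies, made most of that difference, at 374 ± 22.0, 192 ± 9.27 and 499.7 ± 11.2 FPKM in WMW-H, AOM/DSS and control. Of the 6 plasma cell genes, 3 were lower and 2 higher in WMW-H than in AOM/DSS, beside 40.9% and 25.9% of all genes tested. B cell genes summed to 12.0 to 14.6 FPKM in WMW-H, 27.5 to 29.9 FPKM in AOM/DSS and 28.0 to 33.4 FPKM in control. Neutrophil genes summed to 41.4 to 53.2 FPKM in WMW-H, 73.8 to 91.5 FPKM in AOM/DSS and 11.3 to 14.4 FPKM in control, with all 5 tested higher in AOM/DSS than in control and lower in WMW-H than in AOM/DSS. Of 9 tested Paneth cell genes, 8 were higher in AOM/DSS than in control, and the other changed by -1.504 on the log2 scale. The sum of the 10 Paneth cell genes was level, at 1290 to 1430 FPKM in WMW-H, 1320 to 1390 FPKM in AOM/DSS and 1320 to 1360 FPKM in control. The part of these cells and tissues in the interferon genes' changes was not tested, and in bulk RNA fewer cells of a type and less RNA per cell cannot be told apart.

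Scaling moved the split of all calls. In AOM/DSS against control, 31.1% of called genes were lower as deposited, 52.5% after quantile normalization and 48.6% with size factors (medians of ratios). In WMW-H against AOM/DSS, 61.2% of called genes were lower as deposited and 50.4% after quantile normalization, and in WMW-H against control 40.5% and 52.0%. Size factors shifted the median of all genes in AOM/DSS against control to 0.01 on the log2 scale. Relative to that median the members stood at -1.19, against -1.18 as deposited. A size factor divides all genes of a library alike, so this difference could hardly change and is no check of scaling.

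**Figure D1:**
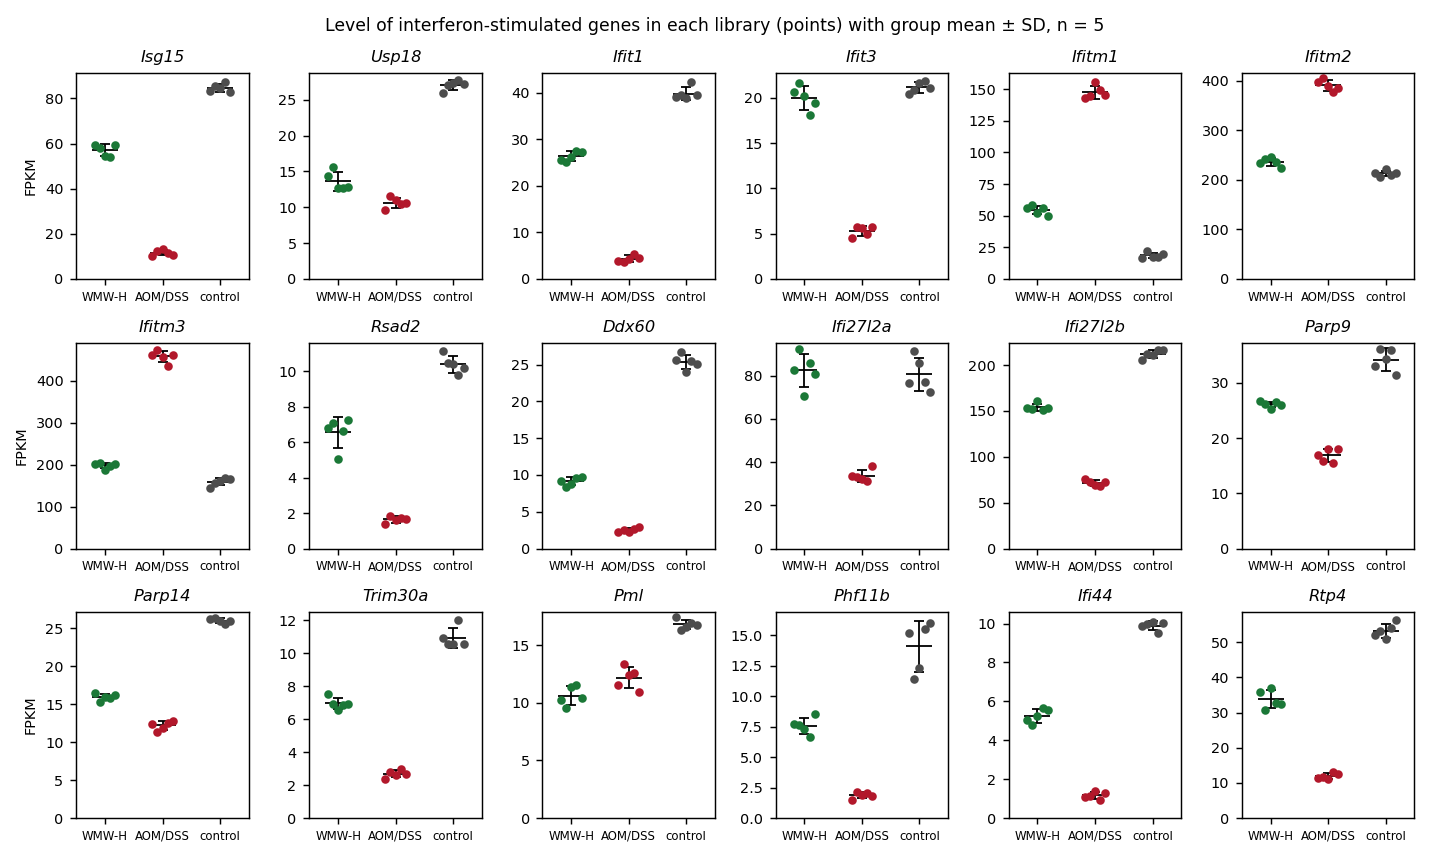
Levels in FPKM (vertical axes, each from 0) of the 18 members taken by the naming rule, in WMW-H, AOM/DSS and control libraries. Points are single libraries and black marks the mean ± SD of 5. WMW-H points lie between the other groups for most genes, among them the 3 Ifitm genes, whose highest group is AOM/DSS. They lie at the control level for Ifit3 and Ifi27l2a, and mostly below AOM/DSS for Pml.

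The ISG15 system attaches a ubiquitin-like tag to proteins. Isg15 encodes the tag, Uba7 the activating enzyme, Ube2l6 the conjugating enzyme, Herc6 the main ligase in mice and Usp18 the protease that removes the tag and also restrains IFNAR2. All 5 fell in AOM/DSS, and all but Uba7 were higher in WMW-H than in AOM/DSS.

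Isg15 (ENSMUSG00000035692) stood at 59.4, 57.8, 54.7, 54.1 and 59.4 FPKM in WMW-H, at 10.3, 12.2, 13.3, 11.5 and 10.8 FPKM in AOM/DSS, and at 83.3, 85.3, 84.7, 87.3 and 82.6 FPKM in control. All WMW-H libraries were above all AOM/DSS libraries and below all control libraries. The change was -2.77 ± 0.05 (SE) on the log2 scale in AOM/DSS against control (limma adjusted p = 1.62e-17) and 2.21 ± 0.05 in WMW-H against AOM/DSS (adjusted p = 1.06e-15). With 62.3% ± 3.49 (SD, n = 5) of its fall restored, Isg15 had the largest share among the 28 genes that lay between the other groups.

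Usp18 (ENSMUSG00000030107) stood at 14.4, 15.7, 12.6, 12.7 and 12.8 FPKM in WMW-H, at 9.64, 11.6, 10.9, 10.5 and 10.7 FPKM in AOM/DSS, and at 25.9, 27.0, 27.3, 27.8 and 27.2 FPKM in control. WMW-H libraries were just above the AOM/DSS ones and far below control. The log2 change was -1.27 ± 0.06 in AOM/DSS against control (adjusted p = 2.49e-12) and 0.33 ± 0.06 in WMW-H against AOM/DSS (adjusted p = 7.56e-05), with 18.2% ± 8.20 restored, the smallest share of the same 28 genes.

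The enzymes between tag and protease were restored to different degrees. Ube2l6 averaged 23.9 ± 2.10 FPKM in WMW-H, 16.1 ± 0.88 FPKM in AOM/DSS and 38.3 ± 2.31 FPKM in control (SD, n = 5 each), and 35.2% ± 9.48 of its fall was restored. Herc6 averaged 3.05 ± 0.28, 1.40 ± 0.57 and 8.16 ± 0.45 FPKM in WMW-H, AOM/DSS and control, with 24.4% ± 4.09 restored. Uba7 averaged 12.65 ± 0.67 FPKM in WMW-H and 12.57 ± 0.99 FPKM in AOM/DSS, against 21.1 ± 0.38 FPKM in control. For Uba7 the log2 difference between WMW-H and AOM/DSS was 0.01, with a 95% interval from -0.09 to 0.11 (adjusted p = 0.866). The tag stood at 67.5% of control in WMW-H, while the activating, conjugating and ligating enzymes stood at 60.0%, 62.5% and 37.4%.

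IFIT proteins bind viral RNA ends and hold back its translation. The 4 genes, neighbours on chromosome 19, fell in AOM/DSS and rose in WMW-H against AOM/DSS without overlap, and Ifit1 alone stayed lower than control.

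Ifit1 (ENSMUSG00000034459) stood at 25.6, 25.2, 26.3, 27.5 and 27.3 FPKM in WMW-H, at 3.97, 3.63, 4.30, 5.43 and 4.57 FPKM in AOM/DSS, and at 39.1, 39.4, 39.0, 42.3 and 39.5 FPKM in control. The 3 groups formed separate bands, with AOM/DSS lowest. Its log2 change of -2.93 ± 0.07 in AOM/DSS against control (adjusted p = 1.66e-16) was the deepest fall of the 44 genes on that scale, and 2.35 ± 0.07 in WMW-H against AOM/DSS (adjusted p = 1.06e-14) was their largest rise. A log2 difference of -0.58 ± 0.07 against control remained in WMW-H (adjusted p = 9.69e-07), and 62.0% ± 2.86 of the fall was restored.

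Ifit3 (ENSMUSG00000074896) stood at 20.6, 21.6, 20.2, 18.04 and 19.5 FPKM in WMW-H, at 4.55, 5.73, 5.66, 4.99 and 5.75 FPKM in AOM/DSS, and at 20.4, 20.8, 21.6, 21.8 and 21.1 FPKM in control. WMW-H and control libraries overlapped, and both lay well above AOM/DSS. Its log2 change was -1.81 ± 0.06 in AOM/DSS against control (adjusted p = 2.23e-14) and 1.73 ± 0.06 in WMW-H against AOM/DSS (adjusted p = 1.27e-13), and the difference between WMW-H and control was -0.08, with a 95% interval from -0.20 to 0.04 (adjusted p = 0.247).

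Ifit2 averaged 14.3 ± 0.64 FPKM in WMW-H, 3.78 ± 0.45 FPKM in AOM/DSS and 15.8 ± 1.12 FPKM in control, with 87.5% ± 5.31 restored. Its difference between WMW-H and control, -0.13 on the log2 scale, was not called (adjusted p = 0.0722) but passed with size factors (0.0146), quantile normalization (0.0126), the other-tissue genes left out (0.0152), only both groups in the fit (0.0386), and without control replicate 5 (0.0494) or AOM/DSS replicate 5 (0.0338), with adjusted p from 0.0126 to 0.191 over all alternatives. Ifit3b averaged 5.05 ± 0.37, 2.18 ± 0.28 and 5.15 ± 0.46 FPKM in WMW-H, AOM/DSS and control, with 96.4% ± 12.4 restored. Ifit3 and Ifit3b cannot be cleanly separated: 41.1% of the 75-base windows of the longest Ifit3 transcript in GENCODE M21 occur in that of Ifit3b and 35.7% the other way round. Summed, the pair averaged 25.0 ± 1.29, 7.52 ± 0.34 and 26.3 ± 0.33 FPKM, with 93.3% restored.

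**Figure D2:**
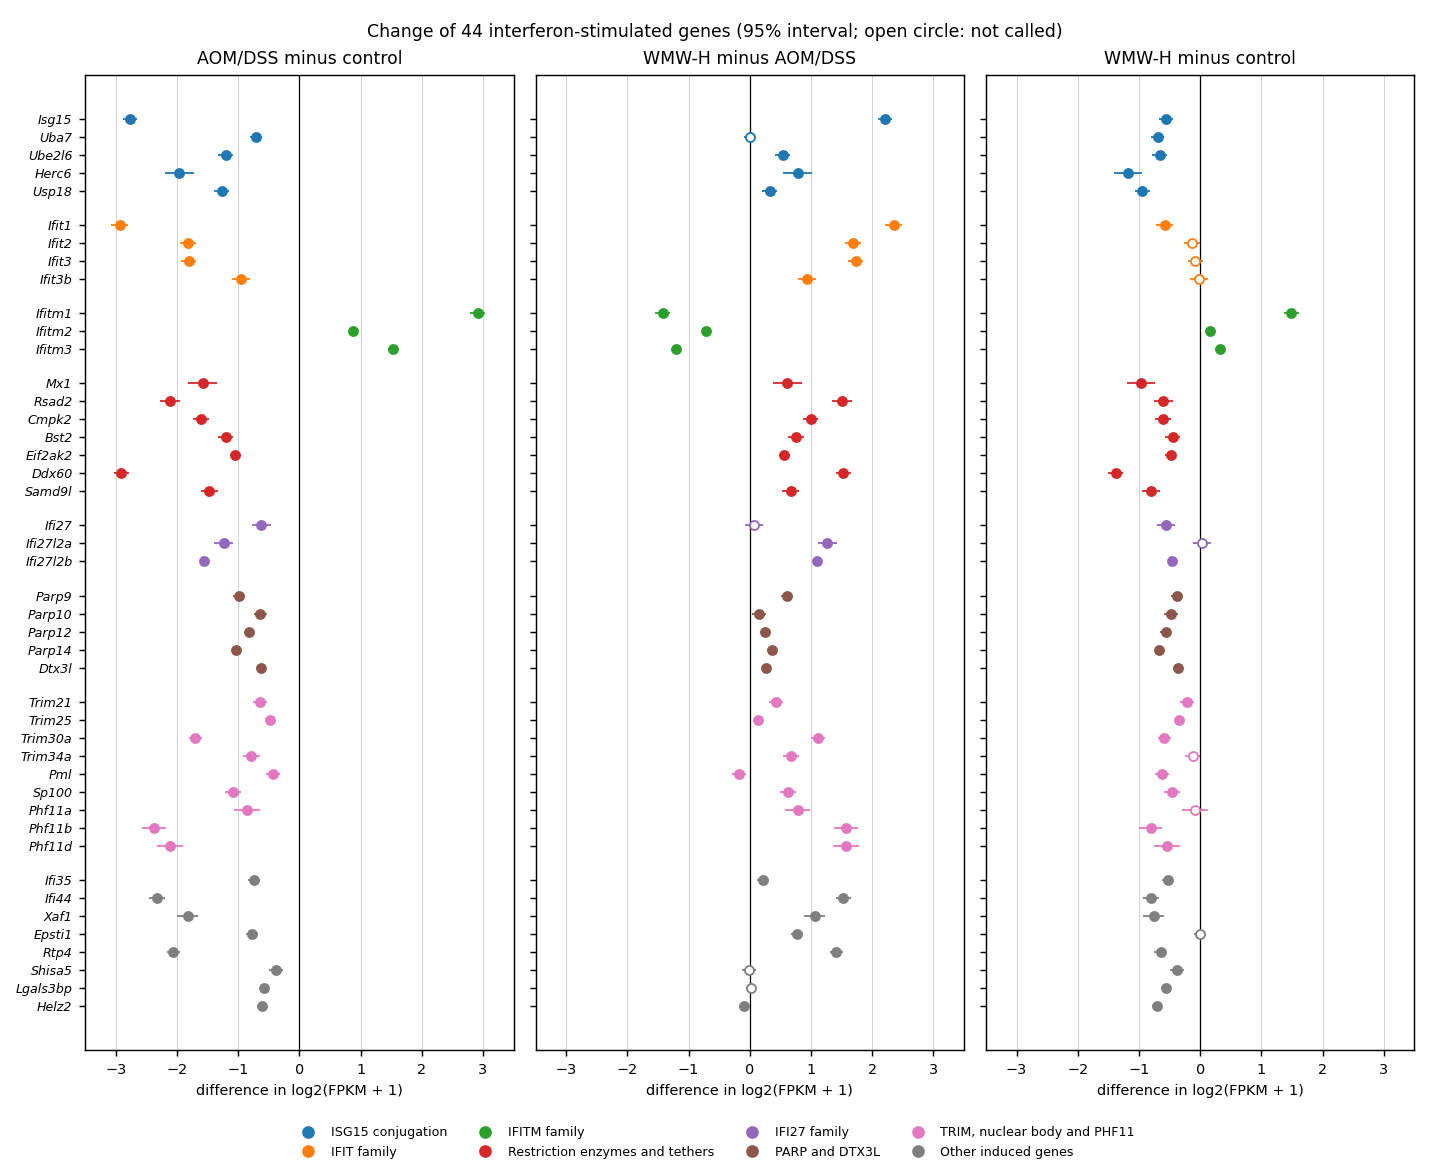
Difference in log2(FPKM + 1) (horizontal axes) of the 44 members, grouped by role and coloured by it, in AOM/DSS minus control, WMW-H minus AOM/DSS and WMW-H minus control. Circles are limma estimates from 5 libraries a group, bars the 95% interval, and open circles the genes not called at an adjusted p under 0.05. All members but the 3 Ifitm genes lie left of 0 in the first panel, and all but those 3, Pml, Shisa5 and Helz2 lie right of 0 in the second.

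IFITM proteins sit in cell and endosome membranes and block fusion of enveloped viruses, and in humans the family was also described as raised in colorectal tumours. Unlike the other 41 genes, all 3 were higher in AOM/DSS than in control, lower in WMW-H than in AOM/DSS and still higher in WMW-H than in control, under every scaling tried. Their sum was 476.7 to 503.1 FPKM in WMW-H, 962.2 to 1024 FPKM in AOM/DSS and 377.2 to 400.0 FPKM in control.

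Ifitm1 (ENSMUSG00000025491) stood at 56.5, 58.1, 51.9, 55.7 and 50.1 FPKM in WMW-H, at 143, 145, 156, 149 and 145 FPKM in AOM/DSS, and at 16.9, 21.9, 17.7, 17.7 and 19.7 FPKM in control. No groups overlapped, and the AOM/DSS mean was 7.86-fold the control mean. The log2 changes were 2.91 ± 0.06 in AOM/DSS against control (adjusted p = 3.99e-17), -1.42 ± 0.06 in WMW-H against AOM/DSS (adjusted p = 1.98e-12) and 1.49 ± 0.06 in WMW-H against control (adjusted p = 1.12e-12).

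Ifitm3 (ENSMUSG00000025492) stood at 201, 203, 187, 197 and 202 FPKM in WMW-H, at 461, 474, 457, 436 and 461 FPKM in AOM/DSS, and at 145, 157, 161, 167 and 165 FPKM in control. Every AOM/DSS library was far above every library of the other groups. Its log2 changes were 1.52 ± 0.04 in AOM/DSS against control (adjusted p = 2.53e-16), -1.20 ± 0.04 in WMW-H against AOM/DSS (adjusted p = 1.99e-14) and 0.32 ± 0.04 in WMW-H against control (adjusted p = 6.81e-07).

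Ifitm2 (ENSMUSG00000060591) stood at 235, 242, 246, 237 and 225 FPKM in WMW-H, at 398, 405, 390, 377 and 385 FPKM in AOM/DSS, and at 215, 206, 221, 209 and 214 FPKM in control. WMW-H and control came close here without overlapping. On the log2 scale the changes were 0.87 ± 0.03 in AOM/DSS against control (adjusted p = 2.07e-14), -0.72 ± 0.03 in WMW-H against AOM/DSS (adjusted p = 8.07e-13) and 0.15 ± 0.03 in WMW-H against control (adjusted p = 0.000148). No 75-base window was shared between the longest transcripts of the 3 genes.

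Among restriction enzymes and tethers, all 7 genes with a row fell in AOM/DSS, rose in WMW-H against AOM/DSS and stayed below control, each without overlap. They are Rsad2 (viperin, which makes a nucleotide that stops viral RNA chains), its neighbour Cmpk2 (a nucleotide kinase), Bst2 (tetherin, which holds budding virus on the cell), Eif2ak2 (PKR, a kinase that halts translation on sensing double-stranded RNA), the RNA helicase Ddx60, Samd9l and Mx1. C57BL/6 mice carry an Mx1 allele with a deletion that leaves no working protein.

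Ddx60 (ENSMUSG00000037921) stood at 9.24, 8.40, 8.76, 9.58 and 9.75 FPKM in WMW-H, at 2.25, 2.59, 2.21, 2.65 and 2.92 FPKM in AOM/DSS, and at 25.6, 26.7, 23.9, 25.4 and 25.1 FPKM in control. AOM/DSS kept 9.95% ± 1.16 of the control mean, the smallest share of the 44 genes. WMW-H stayed nearer to AOM/DSS than to control in FPKM, but not on the log2 scale. The log2 changes were -2.91 ± 0.06 in AOM/DSS against control (adjusted p = 3.62e-17), 1.53 ± 0.06 in WMW-H against AOM/DSS (adjusted p = 6.68e-13) and -1.38 ± 0.06 in WMW-H against control (adjusted p = 2.79e-12), and 29.0% ± 2.46 of the fall was restored.

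Rsad2 (ENSMUSG00000020641) stood at 6.81, 7.04, 5.07, 6.63 and 7.23 FPKM in WMW-H, at 1.37, 1.86, 1.60, 1.72 and 1.67 FPKM in AOM/DSS, and at 11.1, 10.5, 10.4, 9.79 and 10.2 FPKM in control. WMW-H replicate 3 was the lowest of its group and still above all AOM/DSS libraries. Its log2 changes were -2.11 ± 0.08 in AOM/DSS against control (adjusted p = 1.28e-13) and 1.51 ± 0.08 in WMW-H against AOM/DSS (adjusted p = 2.55e-11), with 56.2% ± 9.89 restored.

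The others of the group were restored in part. Cmpk2 averaged 8.92 ± 0.75, 3.99 ± 0.45 and 14.1 ± 0.24 FPKM in WMW-H, AOM/DSS and control (48.9% restored), and Bst2 averaged 35.3 ± 2.85, 20.5 ± 1.47 and 48.5 ± 3.21 FPKM (52.9% restored). Eif2ak2 averaged 11.0 ± 0.36, 7.08 ± 0.35 and 15.7 ± 0.64 FPKM in the same order (45%), and Samd9l averaged 15.01 ± 0.83, 9.14 ± 1.31 and 26.9 ± 1.16 FPKM (33.0%). Mx1 was low throughout, at 1.96 ± 0.30 FPKM in WMW-H, 0.96 ± 0.38 FPKM in AOM/DSS and 4.77 ± 0.27 FPKM in control (26.3%). Within the group, Rsad2 and Ddx60 both fell to under 16% of control, yet Ddx60 reached only 36.1% ± 2.21 of control in WMW-H and Rsad2 63.1% ± 8.33.

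The IFI27 genes encode small hydrophobic proteins of mitochondrial and nuclear membranes. All 3 fell in AOM/DSS, and they parted in WMW-H: Ifi27l2a was not called against control, Ifi27l2b lay between the other groups, and Ifi27 was not called against AOM/DSS.

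Ifi27l2a (ENSMUSG00000079017) stood at 82.7, 92.1, 70.7, 85.7 and 80.6 FPKM in WMW-H, at 33.3, 33.2, 32.3, 31.0 and 38.0 FPKM in AOM/DSS, and at 76.6, 91.2, 85.7, 77.0 and 72.3 FPKM in control. WMW-H and control libraries were interleaved, and at 104% ± 16.7 the share restored was the highest of the 41 genes. On the log2 scale the changes were -1.24 ± 0.07 in AOM/DSS against control (adjusted p = 9.05e-11), 1.27 ± 0.07 in WMW-H against AOM/DSS (adjusted p = 1.11e-10) and 0.03 in WMW-H against control, with a 95% interval from -0.12 to 0.18 (adjusted p = 0.724).

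Ifi27l2b (ENSMUSG00000021208) stood at 153, 152, 160, 151 and 153 FPKM in WMW-H, at 75.7, 72.2, 68.7, 68.6 and 72.7 FPKM in AOM/DSS, and at 205, 212, 211, 216 and 216 FPKM in control. The 3 groups were separate and each was tight. The log2 changes were -1.56 ± 0.03 in AOM/DSS against control (adjusted p = 1.07e-17) and 1.09 ± 0.03 in WMW-H against AOM/DSS (adjusted p = 4.03e-15), with 58.6% ± 2.62 restored. Its neighbour Ifi27 averaged 37.4 ± 4.24 FPKM in WMW-H, 35.6 ± 3.13 FPKM in AOM/DSS and 55.1 ± 2.08 FPKM in control, and the log2 difference of WMW-H from AOM/DSS was 0.06 with a 95% interval from -0.09 to 0.21.

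Members of the PARP family transfer ADP-ribose to proteins or RNA, and PARP9 works in a complex with the ubiquitin ligase DTX3L. All 5 genes fell in AOM/DSS, were higher in WMW-H than in AOM/DSS and were lower in WMW-H than in control. Their falls ran from -0.63 to -1.03 on the log2 scale, with a median of -0.82.

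Parp14 (ENSMUSG00000034422) stood at 16.5, 15.3, 16.0, 15.7 and 16.2 FPKM in WMW-H, at 12.4, 11.4, 11.9, 12.5 and 12.8 FPKM in AOM/DSS, and at 26.2, 26.3, 25.9, 25.6 and 25.9 FPKM in control. WMW-H lay nearer to AOM/DSS, with 27.2% ± 3.19 restored. Its log2 change was -1.03 ± 0.03 in AOM/DSS against control (adjusted p = 3.67e-14) and 0.36 ± 0.03 in WMW-H against AOM/DSS (adjusted p = 7.43e-08).

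Parp9 (ENSMUSG00000022906) stood at 26.6, 26.1, 25.3, 26.5 and 26.1 FPKM in WMW-H, at 16.9, 15.9, 18.1, 15.5 and 18.01 FPKM in AOM/DSS, and at 33.2, 36.2, 34.3, 36.0 and 31.4 FPKM in control. In FPKM WMW-H lay midway between the others, with 53.3% ± 2.94 restored. On the log2 scale it changed by -0.98 ± 0.05 in AOM/DSS against control (adjusted p = 5.99e-12) and 0.60 ± 0.05 in WMW-H against AOM/DSS (adjusted p = 5.86e-09).

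Dtx3l, its partner, averaged 16.1 ± 0.50, 13.2 ± 0.87 and 20.9 ± 0.43 FPKM in WMW-H, AOM/DSS and control, with 37.4% restored, and Parp12 averaged 38.8 ± 2.83, 32.3 ± 0.85 and 57.8 ± 0.80 FPKM, with 25.4% restored. Parp10 averaged 10.3 ± 0.95 FPKM in WMW-H, 9.11 ± 0.33 FPKM in AOM/DSS and 14.7 ± 0.60 FPKM in control, with overlap of the first pair. Its rise of 0.15 on the log2 scale in WMW-H against AOM/DSS (adjusted p = 0.0161) was lost with TPM (0.0906) and with the other-tissue genes left out (0.0767), over alternatives from 0.00024 to 0.0906.

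The TRIM proteins are mostly ubiquitin ligases, among them the intracellular antibody receptor TRIM21 and TRIM25, and PML and SP100 build nuclear bodies. With the 3 Phf11 genes the group held 9 members. All 9 fell in AOM/DSS, and all but Pml were higher in WMW-H than in AOM/DSS without overlap.

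Trim30a (ENSMUSG00000030921), a rodent TRIM gene, stood at 7.50, 6.95, 6.55, 6.86 and 6.89 FPKM in WMW-H, at 2.38, 2.77, 2.60, 2.95 and 2.68 FPKM in AOM/DSS, and at 10.9, 10.5, 10.6, 12.0 and 10.6 FPKM in control. The groups were separate, and 51.8% ± 4.18 of the fall was restored. The log2 change was -1.70 ± 0.05 in AOM/DSS against control (adjusted p = 1.64e-14) and 1.11 ± 0.05 in WMW-H against AOM/DSS (adjusted p = 1.18e-11).

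Phf11b (ENSMUSG00000091649) stood at 7.67, 7.64, 7.28, 6.63 and 8.51 FPKM in WMW-H, at 1.47, 2.16, 1.91, 2.07 and 1.80 FPKM in AOM/DSS, and at 15.1, 11.4, 12.3, 15.5 and 16.0 FPKM in control. Control libraries were spread more widely than the others, and the groups did not overlap. Its log2 change was -2.38 ± 0.09 in AOM/DSS against control (adjusted p = 3.64e-13) and 1.57 ± 0.09 in WMW-H against AOM/DSS (adjusted p = 1.94e-10), with 46.5% ± 5.60 restored. Phf11d averaged 11.5 ± 1.17, 3.23 ± 0.71 and 17.1 ± 1.33 FPKM in WMW-H, AOM/DSS and control (59.3% restored), and Phf11a 1.08 ± 0.26, 0.21 ± 0.11 and 1.19 ± 0.24 FPKM (88.4% restored). Phf11a was under 1 FPKM in every AOM/DSS library and so passed the filter only through the other groups. Near copies share reads here too, with 7.1% to 16.6% of 75-base windows in common, and the 3 genes summed gave 54.6% restored.

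Pml (ENSMUSG00000036986) stood at 10.3, 9.59, 11.3, 11.6 and 10.4 FPKM in WMW-H, at 11.6, 13.4, 12.4, 12.6 and 11.0 FPKM in AOM/DSS, and at 17.5, 16.4, 16.6, 16.9 and 16.7 FPKM in control. WMW-H libraries were below most AOM/DSS libraries, with overlap, and control was highest. It fell by 0.44 ± 0.05 on the log2 scale in AOM/DSS against control (adjusted p = 1.71e-06) and by a further 0.18 ± 0.05 in WMW-H against AOM/DSS (adjusted p = 0.00659). The second fall was lost with size factors (adjusted p = 0.069) and after quantile normalization (0.171), the lowest over alternatives being 0.0012, and the share restored was -33.7% ± 17.5, the lowest of the 41 genes.

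Sp100, by contrast, averaged 23.3 ± 2.66 FPKM in WMW-H, 14.7 ± 0.69 FPKM in AOM/DSS and 32.4 ± 1.72 FPKM in control, with 48.6% ± 15.1 restored. Trim21 averaged 4.60 ± 0.31, 3.16 ± 0.14 and 5.51 ± 0.41 FPKM in the same order, with 61.1% restored, and Trim25 averaged 36.4 ± 1.14, 33.1 ± 0.61 and 46.8 ± 1.89 FPKM, with 24.3% restored. Trim34a averaged 6.34 ± 0.50 FPKM in WMW-H, 3.63 ± 0.38 FPKM in AOM/DSS and 6.94 ± 0.28 FPKM in control. Its log2 difference of -0.12 between WMW-H and control was not called (adjusted p = 0.12), and passed with size factors (0.0313), quantile normalization (0.00936), the other-tissue genes left out (0.0338) and on leaving out WMW-H replicate 1 (0.0395). Over all alternatives its adjusted p ran from 0.00936 to 0.236.

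The other induced genes were Rtp4 (a receptor-transporting chaperone), Ifi44, Xaf1 (a partner of the apoptosis inhibitor XIAP), Epsti1, Ifi35, Shisa5 (a membrane protein of the endoplasmic reticulum), Lgals3bp (a secreted galectin-binding glycoprotein) and the helicase Helz2. All 8 fell in AOM/DSS. In WMW-H against AOM/DSS, 5 were higher, Helz2 was lower and 2 were not called.

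Rtp4 (ENSMUSG00000033355) stood at 35.8, 30.8, 36.9, 32.9 and 32.4 FPKM in WMW-H, at 11.4, 11.7, 11.3, 13.2 and 12.4 FPKM in AOM/DSS, and at 51.9, 53.1, 50.9, 54.0 and 56.3 FPKM in control. The groups were separate, and 52.7% ± 6.17 of the fall was restored. On the log2 scale it changed by -2.06 ± 0.05 in AOM/DSS against control (adjusted p = 6.42e-16) and 1.42 ± 0.05 in WMW-H against AOM/DSS (adjusted p = 3.44e-13).

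Ifi44 (ENSMUSG00000028037) stood at 5.04, 4.78, 5.23, 5.67 and 5.58 FPKM in WMW-H, at 1.10, 1.16, 1.40, 0.92 and 1.27 FPKM in AOM/DSS, and at 9.85, 9.96, 10.1, 9.52 and 10.0 FPKM in control. AOM/DSS kept 11.8% ± 1.84 of control and WMW-H 53.2% ± 3.77. The log2 change was -2.33 ± 0.06 in AOM/DSS against control (adjusted p = 1.47e-15) and 1.53 ± 0.06 in WMW-H against AOM/DSS (adjusted p = 1.37e-12).

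Xaf1 averaged 18.5 ± 0.85 FPKM in WMW-H, 8.41 ± 1.35 FPKM in AOM/DSS and 32.0 ± 2.49 FPKM in control, with 42.5% restored, and Ifi35 averaged 28.2 ± 0.97, 24.3 ± 1.81 and 41.1 ± 1.05 FPKM, with 23.3% restored. Epsti1 was not called against control, at 22.6 ± 1.28 FPKM in WMW-H and 12.8 ± 0.26 FPKM in AOM/DSS, against 22.6 ± 1.58 FPKM in control, and its difference from control in WMW-H was 0.003 on the log2 scale, with a 95% interval from -0.10 to 0.10. Lgals3bp averaged 207 ± 8.35 FPKM in WMW-H and 205 ± 7.63 FPKM in AOM/DSS, against 305 ± 13.1 FPKM in control, with a log2 difference between WMW-H and AOM/DSS of 0.01 (95% interval from -0.06 to 0.09). Helz2 averaged 11.2 ± 0.51 FPKM in WMW-H, 12.1 ± 0.30 FPKM in AOM/DSS and 18.9 ± 0.76 FPKM in control. Its fall of 0.10 on the log2 scale in WMW-H against AOM/DSS (adjusted p = 0.0283) was lost with size factors (0.385), after quantile normalization (0.859), and without AOM/DSS replicate 2, 3 or 4 or WMW-H replicate 2, 3 or 4 (adjusted p from 0.0513 to 0.0724), over alternatives from 0.00317 to 0.859.

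For Shisa5, 1 library raised the mean share restored. The gene stood at 212, 204, 259, 215 and 205 FPKM in WMW-H, at 220, 232, 224, 214 and 206 FPKM in AOM/DSS, and at 279, 271, 303, 280 and 291 FPKM in control. Its share restored was 61.2% in WMW-H replicate 3 and between -23.1% and -6.79% in the others.

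**Figure D3:**
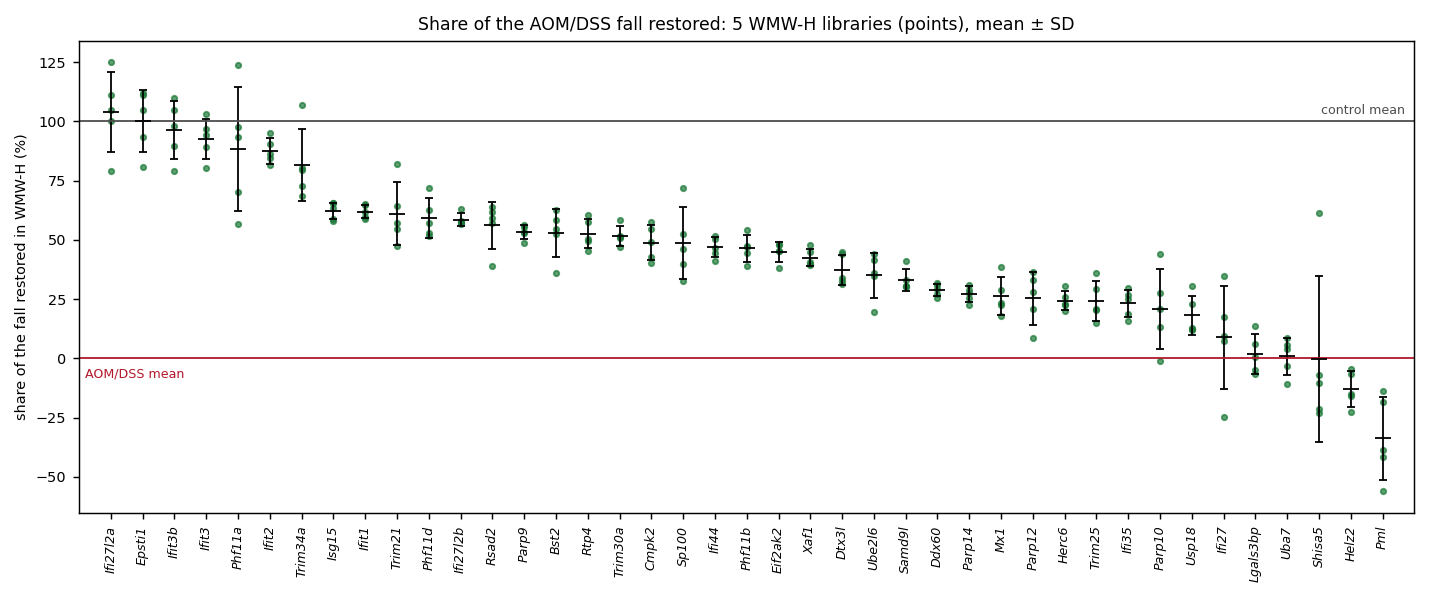
Share of the AOM/DSS fall restored in WMW-H, in percent, for the 41 members that fell, ordered from the highest mean. Points are the 5 WMW-H libraries, black marks their mean ± SD, and lines mark the AOM/DSS mean (0%) and the control mean (100%). After 7 genes near the control line, shares run without a step from Isg15 at 62.3% to Usp18 at 18.2%, and 6 genes lie near or below 0%.

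Shares restored ran from -33.7% for Pml to 104% for Ifi27l2a. In all, 3 genes had a share below 0%, 8 between 0% and 25%, 13 between 25% and 50%, 10 between 50% and 75%, and 7 at or above 75%. Across the 41 genes the share restored and the percentage of control left in AOM/DSS had a Spearman rho of -0.49, a description across genes, which share libraries and whose 2 measures share the AOM/DSS and control means. The 14 genes that fell and held an ISRE core match had a median log2 change of -1.45 in AOM/DSS against control and a median of 58.6% restored, where the 18 without a match had -0.95 and 34.1%. Both sets ranged widely. Shisa5 was counted with a match, which lay after the start at only 1 of its several annotated starts, and had no net restoration. Epsti1 and Ifit2 held none and had 100% and 87.5% restored. The 4 near or below 0% with a single annotated start, Uba7, Lgals3bp, Pml and Helz2, had no match in their windows, as had 18 of all 32 genes that fell and had a promoter. Usp18, Mx1, Ifi27, Ifi27l2a, Ifi27l2b, Parp9, Parp10, Parp14 and Rtp4 fell too, but had no promoter entry and are in neither set.

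The pathway around these genes was read from lists of ligands, receptors and transducers, negative regulators, sensors and neighbouring effectors. Ligand transcripts were near absent: 11 of 16 interferon genes, Ifnb1 and 8 Ifna genes among them, were listed at 0 in all 15 libraries, and the sum of all 16 was at most 0.174 FPKM in WMW-H, 0.164 FPKM in AOM/DSS and 0.519 FPKM in control. None was tested. Of 16 receptors and transducers, 5 were lower and 10 higher in AOM/DSS than in control, and 8 were higher and 4 lower in WMW-H than in AOM/DSS. Over all genes tested 20.6% were lower and 45.5% higher in the first comparison, and 25.9% were higher and 40.9% lower in the second. The receptor genes Ifnar1 and Ifnar2, chosen after their values were seen, were higher in AOM/DSS, by 0.57 and 0.48 on the log2 scale (adjusted p = 9.57e-08 and 1.1e-06), and were not called in WMW-H against AOM/DSS.

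Stat2 and Irf9, of the complex that binds the ISRE, moved in the same directions as most effectors. Stat2 averaged 14.1 ± 0.59 FPKM in WMW-H, 9.42 ± 0.46 FPKM in AOM/DSS and 26.0 ± 1.39 FPKM in control, and Irf9 averaged 21.3 ± 0.90, 19.1 ± 0.64 and 33.2 ± 1.18 FPKM. Irf7, the induced factor that amplifies interferon production, averaged 175 ± 5.38, 106 ± 1.91 and 252 ± 8.67 FPKM in the same groups, which did not overlap in any library. In WMW-H against AOM/DSS, Irf9 rose by 0.15 on the log2 scale (adjusted p = 0.00153), against 0.54 for Stat2 (adjusted p = 1.23e-08) and 0.73 for Irf7 (adjusted p = 5.12e-13).

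Of 10 negative regulators, 5 were lower and 4 higher in AOM/DSS than in control, beside 20.6% and 45.5% of all genes. Adar, an RNA-editing enzyme that keeps self RNA from being sensed, averaged 21.2 ± 0.61, 19.8 ± 0.50 and 36.6 ± 1.34 FPKM in WMW-H, AOM/DSS and control. Socs3, a feedback inhibitor of cytokine receptors, went the other way, at 9.48 ± 0.73 FPKM in WMW-H, 15.3 ± 0.99 FPKM in AOM/DSS and 5.23 ± 0.49 FPKM in control (log2 change 1.39 ± 0.06 in AOM/DSS against control, adjusted p = 2.98e-12). Of 17 tested nucleic acid sensors and adaptors of 22 listed, 9 were lower and 5 higher in AOM/DSS than in control. In WMW-H against AOM/DSS 10 were higher and 6 lower, beside 25.9% and 40.9% of all genes tested. Ifih1, the RNA sensor MDA5, averaged 15.7 ± 0.56, 10.8 ± 0.19 and 25.0 ± 0.57 FPKM in WMW-H, AOM/DSS and control. Sting1, the adaptor of cytosolic DNA sensing, averaged 12.3 ± 1.3 FPKM in WMW-H, 36.7 ± 1.36 FPKM in AOM/DSS and 6.74 ± 0.98 FPKM in control, a log2 change of 2.29 ± 0.08 in AOM/DSS against control (adjusted p = 6.9e-14) and of -1.51 ± 0.08 in WMW-H against AOM/DSS (adjusted p = 4.52e-11).

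The OAS genes, whose enzymes sense double-stranded RNA, moved in the same directions as most effectors: all 7 tested, of 8 listed, were lower in AOM/DSS than in control and higher in WMW-H than in AOM/DSS, and 6 stayed lower in WMW-H than in control. Oasl2 averaged 67.8 ± 2.98, 25.2 ± 1.3 and 151.7 ± 6.08 FPKM in WMW-H, AOM/DSS and control, and Oas3 averaged 16.5 ± 0.76, 6.59 ± 0.68 and 39.8 ± 1.16 FPKM. Of 18 tested genes tied to interferon gamma, of 20 listed, 15 were lower and 0 higher in AOM/DSS than in control, and 13 were higher and 0 lower in WMW-H than in AOM/DSS. Over all genes tested, 20.6% were lower and 45.5% higher in AOM/DSS than in control. In WMW-H against AOM/DSS 25.9% were higher and 40.9% lower, and 24.1% were lower in WMW-H than in control. The GTPase Irgm1 averaged 36.3 ± 1.00 FPKM in WMW-H, 15.7 ± 0.57 FPKM in AOM/DSS and 60.3 ± 0.73 FPKM in control, and Igtp averaged 16.9 ± 1.18, 8.69 ± 0.40 and 40.4 ± 0.83 FPKM. The effectors are shared with interferon gamma in part, and these data do not separate the types of interferon.

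**Figure D4:**
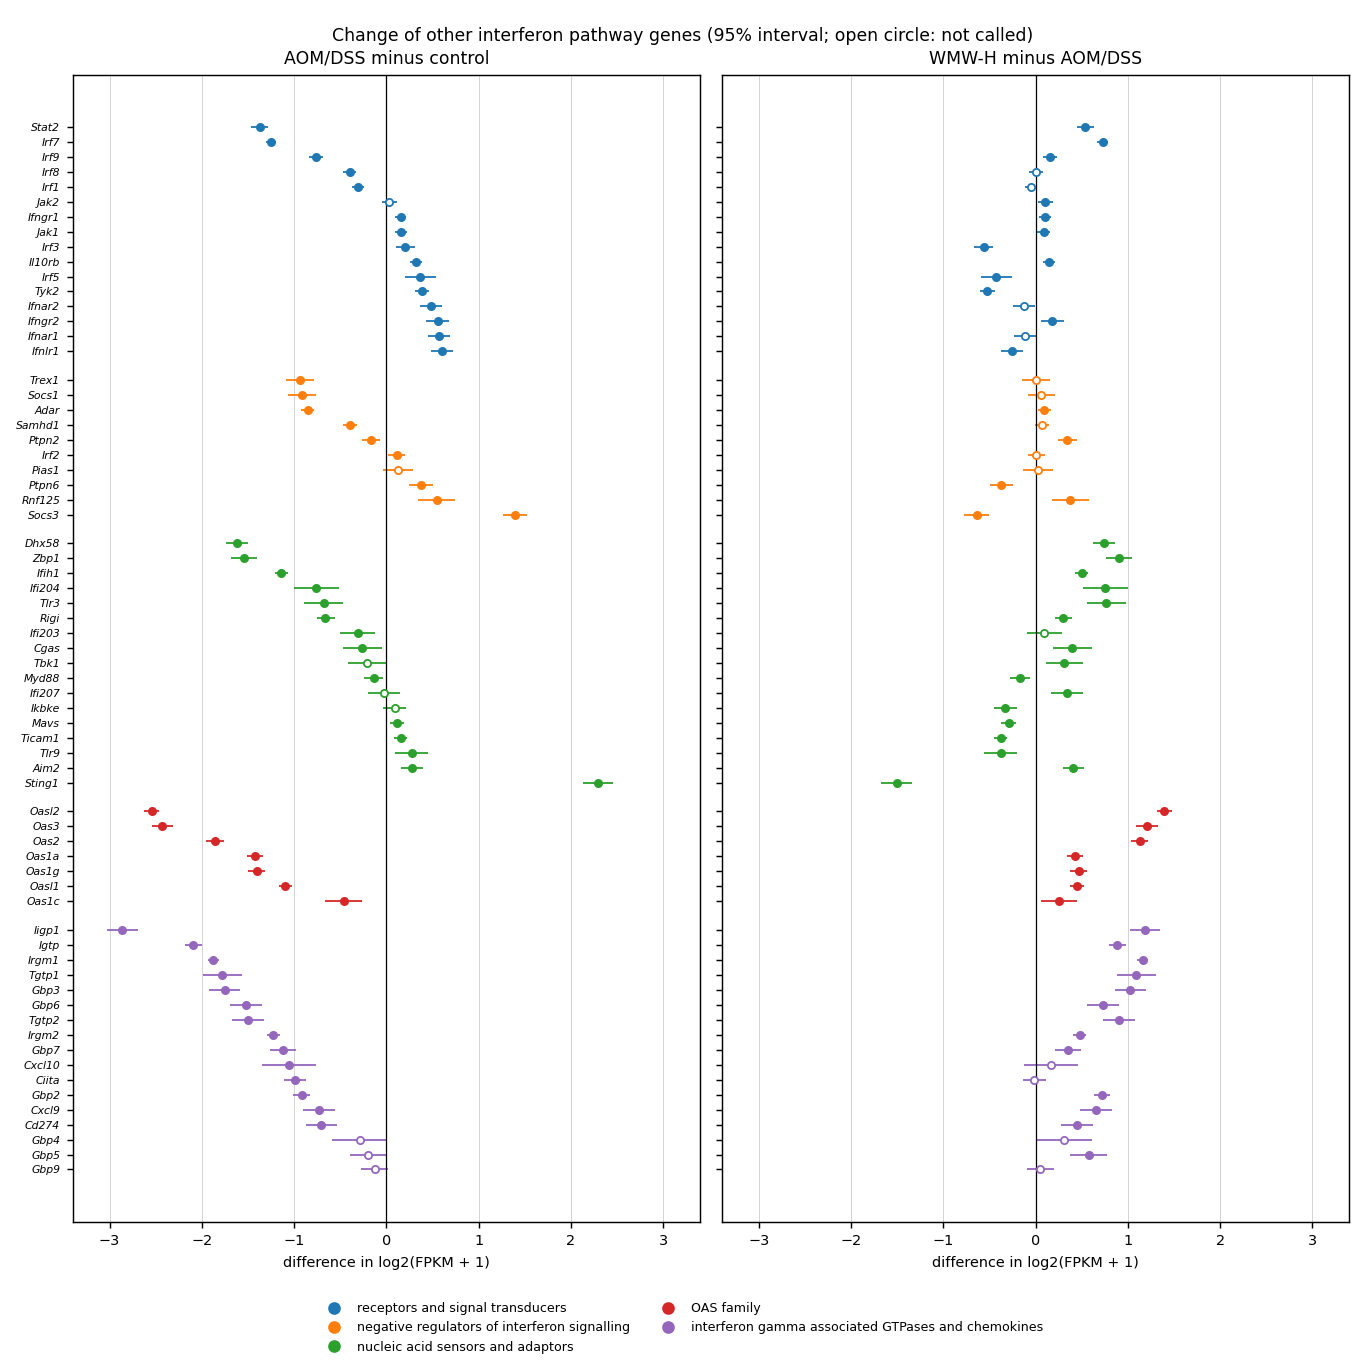
Difference in log2(FPKM + 1) (horizontal axes) of the tested interferon pathway genes outside the 44 members, coloured by list, in AOM/DSS minus control and WMW-H minus AOM/DSS. Circles are limma estimates from 5 libraries a group, bars the 95% interval, open circles genes not called, and Socs1, which is in 2 lists, is drawn once. All 7 OAS genes lie left of 0 in the first panel and right of 0 in the second, and Sting1 and Socs3 lie right of 0 in the first panel and left of it in the second.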

How the data were processed

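The authors deposited 1 table of FPKM values for 15 libraries, with no read counts. Per the labels' protocols, poly(A) RNA was selected with oligo(dT) beads and libraries were made with the NEBNext Ultra kit. The tools RSEM, StringTie 1.3.1, HISAT2, Bowtie2 2.2.8 and fastp 0.18.0 are listed, in no order, per the submitters' processing notes. The genome build was not given in the sources used here. The members and all lists were chosen with earlier results of these data known. Genes at 1 FPKM or more in at least 5 libraries were tested on log2(FPKM + 1), which understates changes of low genes, with limma 3.58.1 in R 4.3.3 (1 mean per group, all 15 libraries, empirical Bayes with a trend) and Benjamini-Hochberg adjustment at 0.05. The steps were tested on simulated data. Library values were given for up to 2 members per role group with the smallest p in AOM/DSS against control, for members against the majority, and for the highest and lowest share restored. Depth was read from 3328 genes with 1 transcript, where 88.6% of 7047 low values lay no more than 0.1 from a whole number of fragments. Alternatives were the pseudocount, the filter, 3 scalings, other-tissue genes left out, moderation without a trend, fits of only 2 groups, a replicate block and each library left out. Figures were drawn with matplotlib 3.10.9. Certain genes taken by the naming rule are left out here.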

Additional observations from a re-analysis of the deposited data

Results flagged for a closer look

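In 132 sets of 5 libraries (44 genes in 3 groups), 8 held 1 library whose gap to its neighbour took more than 0.71 of the set's range, which chance gives in about 1 of 20 sets. WMW-H replicate 3 was low for Rsad2 (5.065 FPKM, others 6.631 to 7.234) and high for Ifi27l2b (160.406 FPKM, others 151.212 to 153.087) and Shisa5 (259.328 FPKM, others 204.036 to 214.735). WMW-H replicate 5 was low for Eif2ak2 (10.364 FPKM, others 10.989 to 11.236) and high for Samd9l (16.442 FPKM, others 14.486 to 15.008). AOM/DSS replicate 1 was high for Herc6, at 2.399 FPKM beside 0.975 to 1.257. Control replicate 4 was high for Ifit1 (42.259 FPKM, others 38.967 to 39.475) and Trim30a (11.997 FPKM, others 10.529 to 10.948).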

How the results depend on the processing

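No member reversed, and none lost its call in AOM/DSS against control, in 24 alternatives. Reversed means a change of sign with a call as deposited or in the alternative, so a change of sign without a call was not counted. The members' median log2 change in AOM/DSS against control was -1.223 with a pseudocount of 0.1, -1.116 with TPM, -1.179 with size factors and -1.204 after quantile normalization. In WMW-H against AOM/DSS it was 0.749 with that pseudocount, 0.704 with size factors, 0.736 after quantile normalization and 0.603 with the other-tissue genes left out, and in WMW-H against control -0.564, -0.598, -0.578 and -0.601, -0.563 with TPM, and -0.555 to -0.522 with 1 library left out. Of all genes in AOM/DSS against control, 4167 were called lower and 3765 higher after quantile normalization, against 2658 and 5881. Members lower in WMW-H than in AOM/DSS numbered 3 with size factors or quantile normalization and 5 as deposited, the cause being smaller estimates for Pml and Helz2. The median share restored was 43.8% with the other-tissue genes left out and 58.2% on the log2 scale, and 44.2% to 47.1% with 1 library left out. Same-numbered libraries did not deviate together (correlations -0.0472 to 0.0298), so numbers are not taken as pairs. The replicate block left 39 members called in WMW-H against AOM/DSS, with Helz2 lost (adjusted p = 0.0588), and no other call of a member changed. Depth limits Herc6, Mx1, Rsad2, Phf11a, Phf11b and Ifi44, each under 2.5 FPKM in every AOM/DSS library.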
